A study of Mus musculus with 16 samples.

Results

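Myc and 39 genes of ribosome biogenesis and Myc-driven growth were followed through germinal centre B cells that carried a knockout or a point mutation of Crebbp. The 40 genes were taken by name from a table of 48593 genes, not by their values, and all 40 were among the 16606 genes that passed the filter on low counts. In none of the 3 comparisons with wild type did any of the 40 pass the threshold, an adjusted p under 0.05 in edgeR, and few of all tested genes did (1.3% in KO, 0.0181% in RH HET and 1.57% in RH HOMO). These shares came from a fit of both cohorts together. With the compared libraries alone they were 4.5%, 0.0% and 0.0%, and Odc1 passed in KO. In 1 wild type library of the knock-in cohort, RH cohort WT 1, all 40 genes were above the other 2 wild types, and Myc was at 88.3 CPM (counts scaled to the library total after TMM, edgeR's correction for composition), against 41.8 to 55.4 CPM in the other 15 libraries. Odc1, the gene of the rate-limiting enzyme of polyamine synthesis, came closest to a difference by genotype, with lower values in every KO, RH HET and RH HOMO library than in each library of its own cohort's wild type. Of all tested genes, 12.7% were likewise lower without overlap in KO, 3.52% in RH HET and 8.03% in RH HOMO. The last 2 groups share their wild types.

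The cells were germinal centre B cells sorted as B220+, PNA+ and CD95+ from the spleens of mice given sheep red blood cells as antigen. Both 12 and 10 days after immunisation stand in the labels, and which holds was not settled. The series title describes alleles conditional in germinal centre cells. The labels used here name no Cre driver, strain, age or sex, do not say whether wild types carried a Cre, and whether any 2 libraries share a mouse is not stated, so the p-values rest on the spread among libraries, which may be technical. The knockout cohort held 3 libraries with a knockout of Crebbp (KO) and 3 wild types (KO cohort WT). The knock-in cohort held 4 libraries heterozygous (RH HET) and 3 homozygous (RH HOMO) for an allele that the title spells R14467H, and 3 wild types (RH cohort WT). Crebbp encodes a histone acetyltransferase. RH HET and RH HOMO were both set against the same 3 wild types, so their 2 comparisons are not independent. RH cohort WT 1 has a title of the knock-in cohort and a batch tag of the knockout cohort, and it was placed by its title.

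Myc is a transcription factor that binds DNA with its partner Max, most readily at the E-box CACGTG, and drives genes of ribosome production, nucleotide synthesis and polyamine synthesis. Ribosomes are assembled in the nucleolus, where RNA polymerase I transcribes the ribosomal RNA, guide complexes modify it, and assembly factors fold and cleave it into the small and large subunits. In germinal centres most B cells hold little Myc, and a minority that has been selected by T cell help induces it before dividing again. In bulk RNA, fewer Myc-expressing cells and less Myc RNA per cell cannot be told apart.

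Totals per library ran from 41362856 to 93040297 counts. The 7 germinal centre markers (among them Bcl6 and S1pr2) were each at 1 CPM or more in every group, and their summed level was 2610 to 2750 CPM in KO and 2860 to 2990 CPM in KO cohort WT. The same sum was 2410 to 2510 CPM in RH HET, 1840 to 2320 CPM in RH HOMO and 2420 to 2750 CPM in RH cohort WT. The summed markers of plasma cells were 567 to 586 CPM in KO and 646 to 676 CPM in KO cohort WT, and 623 to 652 CPM in RH HET and 674 to 705 CPM in RH HOMO, against 589 to 691 CPM in RH cohort WT. Those of dendritic cells were 35.2 to 39.1 CPM in KO and 46.7 to 58.0 CPM in KO cohort WT. Of these 5 genes only 1 reached 1 CPM in each of these groups, so each sum came mostly from 1 gene. For the shared wild types of the knock-in cohort the dendritic cell sum was 46.6 to 54.1 CPM. RH HET had 50.2 to 54.0 CPM and RH HOMO 44.5 to 59.3 CPM. The germinal centre, plasma cell and dendritic cell sums of KO all lay below their wild types without overlap. So did the germinal centre sum of RH HOMO. The T cell sum of RH HOMO (1.31 to 2.34 CPM) lay above its wild types (0.601 to 1.21 CPM). Over all libraries, the summed markers of naive B cells were 359 to 525 CPM and those of macrophages and monocytes 13.6 to 28.8 CPM. What part these cell types have in the results was not tested. The summed markers of T cells and of erythroid cells reached at most 2.34 CPM in any library. Crebbp itself was read at 108 to 137 CPM in KO and 127 to 149 CPM in KO cohort WT. Which exons were deleted is not in the labels used here, so the level checks no label. In the knock-in cohort Crebbp was at 124 to 138 CPM in RH HET and 68.6 to 126 CPM in RH HOMO, against 91.3 to 122 CPM in RH cohort WT. RH HET thus lay above its wild types without overlap, as did 2.97% of all tested genes. On the first principal component of all tested genes, RH HOMO 2 lay at 53.0 and RH cohort WT 1 at 28.3. The other libraries of the knock-in cohort lay between -4.23 and 18.3. All libraries titled as knockout cohort lay between -28.5 and -14.5, apart from every library titled as knock-in cohort.

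The E-box was looked for in RefSeq promoter windows of the GRCm38.p6 build, which span 250 bases before to 50 bases after a gene's start. The letters CACGTG read the same on both strands. Windows were available for 33 of the 40 genes, and 7 of these (21.2%) held the E-box. It was held by 29 of 108 further pathway genes with a window (26.9%), by 1175 of 10308 tested genes with a window (11.4%) and by 2187 of 27025 genes with a window in all (8.09%). The 7 matches are shown with their surroundings because they are the only places in these windows where the Myc motif stands. Each is 30 bases long, 5′ to 3′ on the gene's own strand, with the E-box in capitals.
Imp4 (chr1:34439696-34439725, plus strand): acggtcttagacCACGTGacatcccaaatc
Mybbp1a (chr11:72441347-72441376, plus strand): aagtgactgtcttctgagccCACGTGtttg
Nop2 (chr6:125131811-125131840, plus strand): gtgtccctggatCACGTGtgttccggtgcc
Pes1 (chr11:3963965-3963994, plus strand): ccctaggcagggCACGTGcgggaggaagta
Tsr1 (chr11:74898092-74898121, plus strand): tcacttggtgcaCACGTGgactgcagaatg
Utp20 (chr10:88826765-88826794, minus strand): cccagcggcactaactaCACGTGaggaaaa
Wdr43 (chr17:71616220-71616249, plus strand): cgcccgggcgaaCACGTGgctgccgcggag
Imp4 and Nop2 held the motif before the start, beginning 121 and 60 bases upstream of it. The other 5 held it after the start, with its first base at position 3 in Pes1, 18 in Wdr43, 25 in Tsr1, 38 in Utp20 and 41 in Mybbp1a, counted from 1 at the start. The stretch before the start is shown for Imp4, which holds the motif, and for Odc1, which had the smallest adjusted p of the 40 genes in each comparison with wild type and has no CACGTG in its window.
Imp4 (250 bases before the RefSeq start, chr1:34439579-34439828, plus strand): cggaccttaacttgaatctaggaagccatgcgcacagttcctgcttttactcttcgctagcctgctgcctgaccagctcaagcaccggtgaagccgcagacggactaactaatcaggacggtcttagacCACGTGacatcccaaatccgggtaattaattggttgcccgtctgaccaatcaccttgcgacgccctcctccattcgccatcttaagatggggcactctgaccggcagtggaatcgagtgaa
Odc1 (171 bases before the GENCODE M21 start, chr12:17544623-17544793, plus strand): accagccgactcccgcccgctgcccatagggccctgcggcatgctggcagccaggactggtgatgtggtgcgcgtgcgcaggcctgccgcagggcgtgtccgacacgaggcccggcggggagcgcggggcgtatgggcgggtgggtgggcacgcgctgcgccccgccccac
Imp4 spans chr1:34439851-34449356 on the plus strand and Odc1 spans chr12:17544794-17551505 on the plus strand (GENCODE M21, GRCm38). A match to the letters is a description of the window and not a measured binding site, and its absence says only that these letters are not in the window.

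The level of the whole set differed between libraries of 1 group. For each gene the log2 CPM in a library was taken relative to the gene's mean over the 16 libraries, and the median of the 40 values was formed for each library. The KO libraries had the medians -0.21, -0.18 and -0.12, and the KO cohort WT libraries -0.03, -0.15 and -0.13. In the heterozygous libraries the medians were -0.08, 0.20, -0.15 and 0.00 and in the homozygous libraries 0.07, 0.25 and 0.02, against 0.44, 0.17 and -0.04 in RH cohort WT. RH cohort WT 1 was the highest of the 16.

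**Figure D1:**
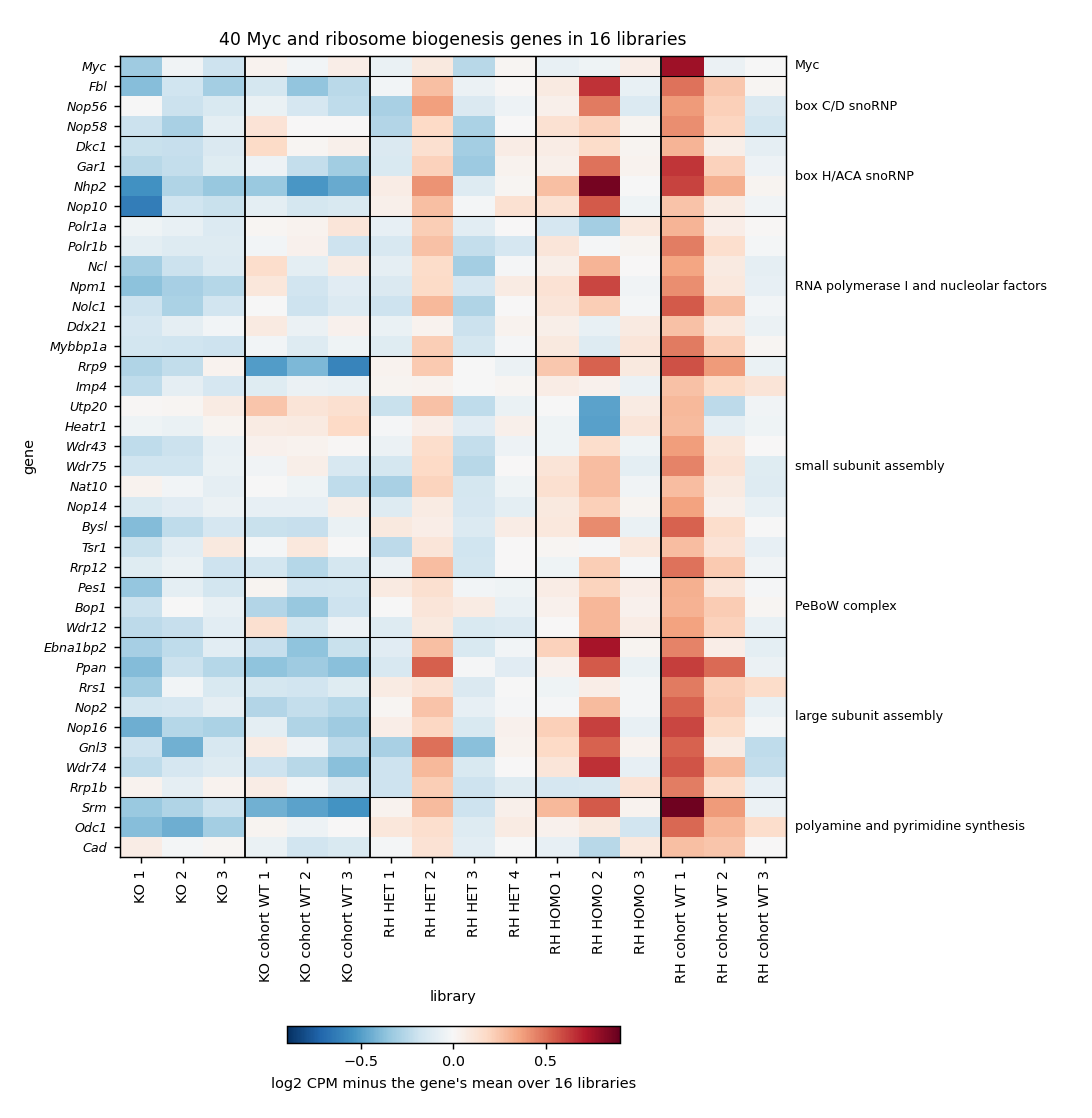
Log2 CPM of each of the 40 genes (rows, grouped by role) in each of the 16 libraries (columns, grouped by genotype), relative to the gene's mean over all 16 libraries; red is above and blue below that mean. The column of RH cohort WT 1 is red in every row, and RH HOMO 2 is mixed, with 9 genes at their highest, against 22.0% of all tested genes, and others at their lowest.

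In RH cohort WT 1 all 40 genes were above both other wild types of the cohort. Of all tested genes, 37.3% were. That library was the highest of all 16 for 31 of the 40 genes, against 9.97% of all tested genes, and RH HOMO 2 was the highest for the other 9, against 22.0% of all tested genes, a share near that of the 40. The log2 ratio of RH cohort WT 1 to the mean of the other 2 wild types had a median of 0.37 over the 40 genes and ran from 0.12 for Imp4 to 0.79 for Myc. The 120 further genes of the pathway that could be tested had 47 at their highest in RH cohort WT 1 and 48 in RH HOMO 2, beside the same 9.97% and 22.0% of all tested genes. The heterozygous library RH HET 2 was above the other 3 of its group for 38 of the 40 genes, against 33.6% of all tested genes.

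The homozygous library RH HOMO 2 was above both other homozygous libraries for 29 of the 40 genes and below both for 8, against 43.0% and 39.6% of all tested genes. The 9 genes at their highest there, a count near the 22.0% of all tested genes, were Ebna1bp2, Fbl, Nat10, Nhp2, Nop10, Nop16, Nop56, Npm1 and Wdr74, whose principal mRNAs are 1042 to 3879 bases long with a median of 1633. The 8 genes below both other homozygous libraries were Cad, Ddx21, Heatr1, Mybbp1a, Polr1a, Polr1b, Tsr1 and Utp20, with mRNAs of 3389 to 9216 bases and a median of 5751. The median over the 37 of the 40 genes with a known length was 2804 bases. Nhp2, a core protein of the box H/ACA complexes, was at 106.7 CPM in RH HOMO 2 and at 70.7 and 58.5 CPM in the other homozygous libraries. Utp20, a scaffold of the small subunit processome, was at 56.2 CPM there and at 78.1 and 82.6 CPM in the others. Some of the summed cell type markers were also at an extreme in this library. Its summed germinal centre markers were the lowest of the 16, at 1840 CPM against 2260 and 2320 CPM in the other homozygous libraries. Its summed markers of T cells, at 2.34 CPM, and of macrophages and monocytes, at 28.8 CPM, were the highest of the 16, against 1.31 and 1.46 CPM and 25.9 and 18.5 CPM in the other homozygous libraries. The T cell sum was low in all 16 libraries. The summed dendritic cell markers of RH HOMO 2, at 59.3 CPM, were also the highest. Those of plasma cells (696 CPM), naive B cells (439 CPM) and erythroid cells (1.06 CPM) were neither highest nor lowest. Of all tested genes, 22.0% were at their highest of the 16 in this library. The part of other cells in its values was not tested. The 2 gene lists were formed from the values and by unlike rules, 1 over all 16 libraries and 1 within the homozygous group. Lengths were not compared with those of all tested genes, and the part of transcript length in the lists was not tested.

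The share of counts on the mitochondrial genome moved with the set in part. It was 4.65%, 3.43% and 3.93% in KO, against 3.90%, 4.47% and 4.03% in KO cohort WT. It was 3.93%, 5.84%, 4.32% and 4.17% in RH HET and 4.59%, 5.28% and 4.32% in RH HOMO, against 7.34%, 7.15% and 4.72% in RH cohort WT. The 2 highest shares were thus those of RH cohort WT 1 and RH cohort WT 2, and RH HET 2 had the highest of the mutant libraries. RH cohort WT 2, which had nearly the same mitochondrial share as RH cohort WT 1, had a median of 0.17 against 0.44. The share of counts on 89 ribosomal protein genes was highest in RH HOMO 2, at 8.89%, then in RH cohort WT 1, at 6.94%, and in RH HET 2, at 6.80%, and was 3.77% to 6.27% in the other 13. With the mitochondrial share as a covariate, the median difference of the 40 genes was 0.03 for RH HET and 0.15 for RH HOMO, against -0.20 and -0.08 without it, so both signs turned. What these shares contribute to the levels of the 40 genes was not tested further.

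**Figure D2:**
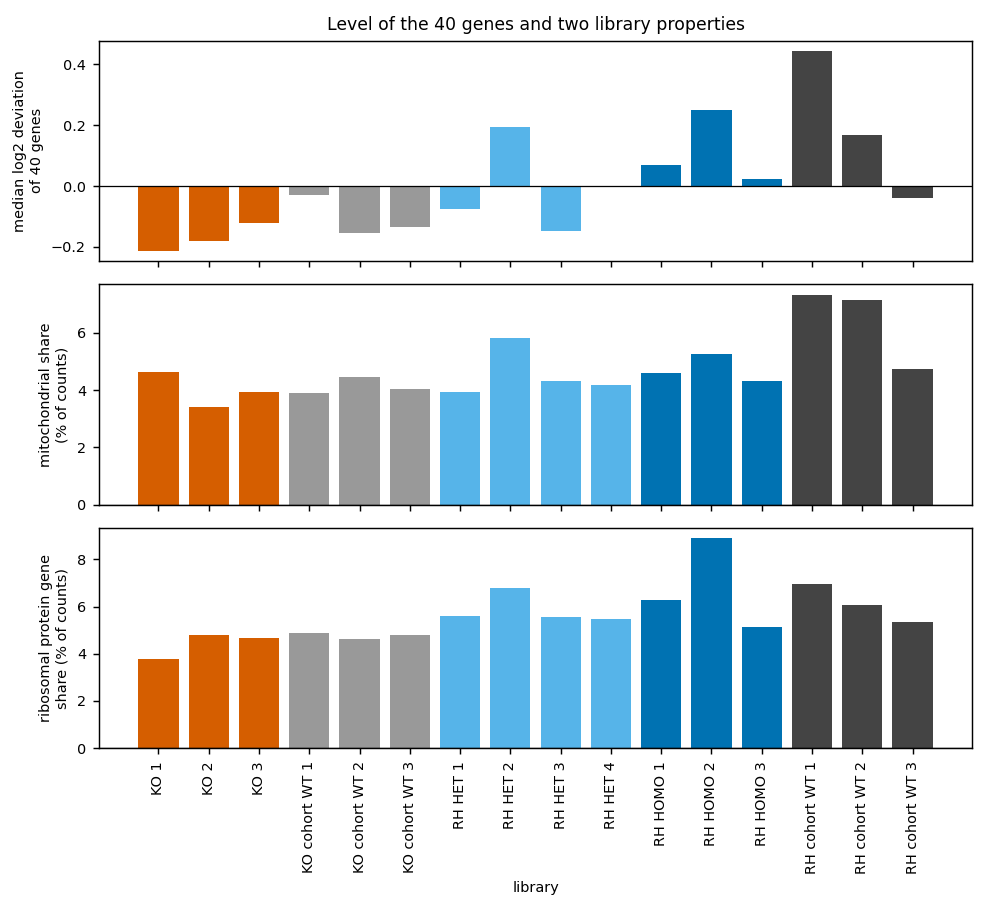
Median log2 deviation of the 40 genes (top), mitochondrial share of counts in percent (middle) and share on ribosomal protein genes in percent (bottom) for each of the 16 libraries, coloured by group. RH cohort WT 1 is highest in the top panel at 0.44, RH cohort WT 1 and RH cohort WT 2 are highest in the middle panel, and RH HOMO 2 is highest in the bottom panel.

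The first comparison asks what loss of Crebbp changed, and here none of the 40 genes was called in KO. Of the 40, 27 had a negative log2 difference, with a median of -0.09, against 50.3% of all tested genes and a median of -0.002. In edgeR's quasi-likelihood test with Benjamini-Hochberg adjustment, 0 were higher and 0 were lower at an adjusted p under 0.05, against 1.3% of all tested genes called (0.572% higher and 0.729% lower). Counted at an unadjusted p under 0.05, 3 of the 40 passed, against 12.1% of all tested genes. DESeq2 called 1 of the 40, Odc1, and 3.34% of all tested genes, and limma-voom called 0 of the 40 and 1.43%, and neither count is above its share of all genes. The KO and KO cohort WT libraries did not overlap for 16 genes, 12 of them lower and 4 higher in KO, against 12.7% of all tested genes in each direction. The 12 lower ones were Myc, Nop58, Dkc1, Nop10, Polr1a, Ncl, Npm1, Mybbp1a, Utp20, Heatr1, Wdr43 and Odc1, and the 4 higher ones were Rrp9, Nop2, Srm and Cad. The median SE of a log2 difference was 0.13. Without KO 1 the median of the 40 was -0.04 and without KO cohort WT 1 it was -0.06, and with RH cohort WT 1 counted in KO cohort WT it was -0.21 with 37 negative. With the compared libraries alone, edgeR called 1 of the 40, Odc1, and 4.5% of all genes tested there.

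For RH HET, 39 of the 40 genes had a negative log2 difference, Nop10 being the exception at 0.01, against 51.2% of all tested genes. The median was -0.20, against -0.007 for all tested genes. None was called by edgeR, DESeq2 or limma-voom, in a comparison in which edgeR called 0.0181% of all tested genes (0.012% higher and 0.00602% lower), DESeq2 0.301% and limma-voom 0.0181%. An unadjusted p under 0.05 was reached by 10 of the 40, against 7.18% of all tested genes. Only Imp4, Odc1 and Rrs1 did not overlap with RH cohort WT, all 3 lower, against 3.52% of all tested genes lower and 2.97% higher without overlap. Without RH cohort WT 1 the median was -0.06 with 35 genes negative, and without RH cohort WT 3 it was -0.31 with all 40 negative. Without RH HET 2 it was -0.27. With the compared libraries alone, edgeR called 0 of the 40 and 0.0% of all genes tested there.

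For RH HOMO, 32 of the 40 genes were negative and the median was -0.08, against 47.3% of all tested genes and a median of 0.02. EdgeR called 0 of the 40 and 1.57% of all tested genes (0.578% higher and 0.994% lower), DESeq2 called 1 of the 40, Odc1, and 3.94% of all tested genes, and limma-voom called 0 of the 40 and 1.43%. An unadjusted p under 0.05 was reached by 5 of the 40, against 12.9% of all tested genes. Imp4, Odc1 and Rrs1 again did not overlap with the shared wild types and were lower, against 8.03% of all tested genes lower and 7.39% higher without overlap. This median turned positive without RH cohort WT 1, at 0.05 with 15 genes negative. Without RH HOMO 2 it was -0.16 with 39 negative, and without RH HOMO 3 it was -0.03. Without RH cohort WT 3 it was -0.19, and without both RH cohort WT 1 and RH HOMO 2 it was -0.02 with 23 negative. With the compared libraries alone, edgeR called 0 of the 40 and 0.0% of all genes tested there. The 1.57% thus depended on a spread estimated over both cohorts.

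**Figure D3:**
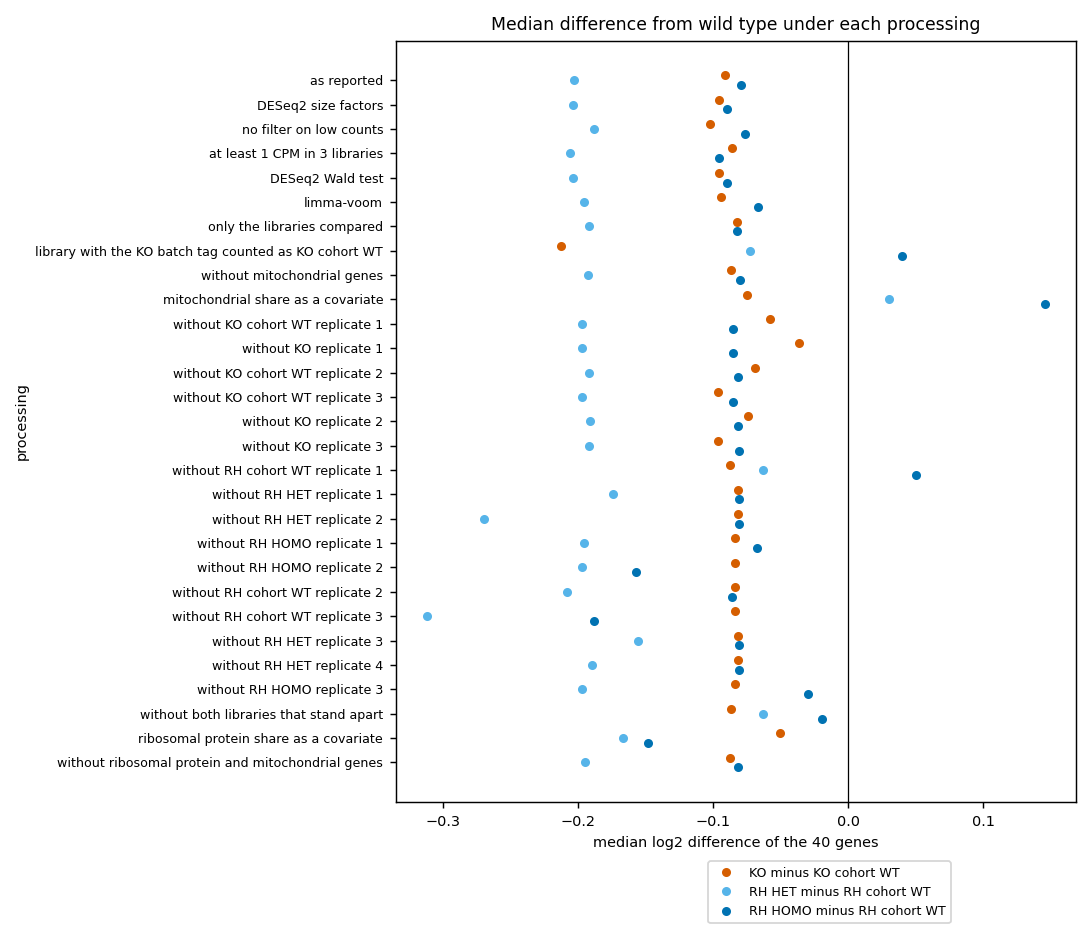
Median log2 difference from wild type of the 40 genes (x axis) under each way of processing (rows), for KO, RH HET and RH HOMO. The KO points lie between -0.21 and -0.04, whereas the RH HET and RH HOMO points cross 0 when the mitochondrial share is a covariate, and the RH HOMO points also do so without RH cohort WT 1 and with that library counted in the knockout cohort.

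Myc, on chromosome 15, had 41.8, 50.8 and 45.7 CPM in the KO libraries and 53.2, 51.2 and 54.3 CPM in the KO cohort WT libraries. All 3 KO libraries were below all 3 wild types, and the log2 difference was -0.20 ± 0.16 (SE, edgeR adjusted p = 0.720). The heterozygous libraries had 49.9, 55.4, 43.7 and 52.7 CPM and the homozygous libraries 49.8, 50.6 and 54.3 CPM, against 88.3, 50.1 and 51.8 CPM in RH cohort WT. Both mutant groups overlapped with the 2 lower wild types, and only RH cohort WT 1 stood above every other library. The log2 differences were -0.33 ± 0.15 in RH HET (adjusted p = 0.689) and -0.30 ± 0.16 in RH HOMO (adjusted p = 0.483). When RH cohort WT 1 was left out, Myc differed by -0.01 in RH HET and by 0.01 in RH HOMO.

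The 3 genes of polyamine and pyrimidine synthesis held the gene nearest to a call. Odc1 had 171, 164 and 181 CPM in KO and 227, 216 and 224 CPM in KO cohort WT. It had 239.8, 247.9, 206.3 and 235.2 CPM in RH HET and 229, 237 and 198 CPM in RH HOMO, against 319.1, 275.1 and 248.4 CPM in RH cohort WT. No mutant library reached the lowest wild type of its cohort, although RH HET 2 came within 1 CPM of it. The log2 differences were -0.37 ± 0.10 in KO (adjusted p = 0.0881), -0.27 ± 0.09 in RH HET (adjusted p = 0.542) and -0.34 ± 0.10 in RH HOMO (adjusted p = 0.103), all in edgeR. DESeq2 put Odc1 past the threshold in KO (adjusted p = 0.0167) and in RH HOMO (adjusted p = 0.0262), and without RH HOMO 2 edgeR gave an adjusted p of 0.0464 for KO. With the compared libraries alone, edgeR gave Odc1 an adjusted p of 0.00788 for KO. Once RH cohort WT 1 was left out, its log2 difference was -0.17 in RH HET and -0.25 in RH HOMO, neither called, with an adjusted p of 1.0 and of 0.332. Its sign was negative in all 3 comparisons under all 29 alternatives, between -0.51 and -0.33 in KO, -0.35 and -0.11 in RH HET, and -0.43 and -0.19 in RH HOMO. Processed pseudogenes of Odc1 exist in the mouse genome and could share its reads.

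Srm, which encodes spermidine synthase, had 32.3, 33.7 and 35.5 CPM in KO and 30.2, 29.1 and 28.1 CPM in KO cohort WT, so the groups did not overlap and KO was the higher. It had 41.5, 49.5, 35.9 and 42.0 CPM in RH HET and 49.7, 59.8 and 41.6 CPM in RH HOMO, against 74.7, 53.1 and 39.3 CPM in RH cohort WT, where RH cohort WT 1 was above every other library and RH cohort WT 3 above only 1 of the mutant libraries. The log2 difference was 0.22 ± 0.18 in KO (adjusted p = 0.724) and -0.40 ± 0.17 in RH HET (adjusted p = 0.662). Srm was at -0.12 in RH HET without RH cohort WT 1, and with that library counted in KO cohort WT the KO value of Srm was -0.25. Cad, the enzyme of the first steps of pyrimidine synthesis, had 119, 112 and 116 CPM in KO and 109, 101 and 104 CPM in KO cohort WT, again without overlap. It had 113, 125, 107 and 114 CPM in RH HET and 108, 96.0 and 122 CPM in RH HOMO, against 138, 136 and 114 CPM in RH cohort WT, and both mutant groups overlapped with the wild types. The RH HOMO difference of Cad minus its KO difference was -0.39 ± 0.14 (adjusted p = 0.31), which did not pass the test.

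**Figure D4:**
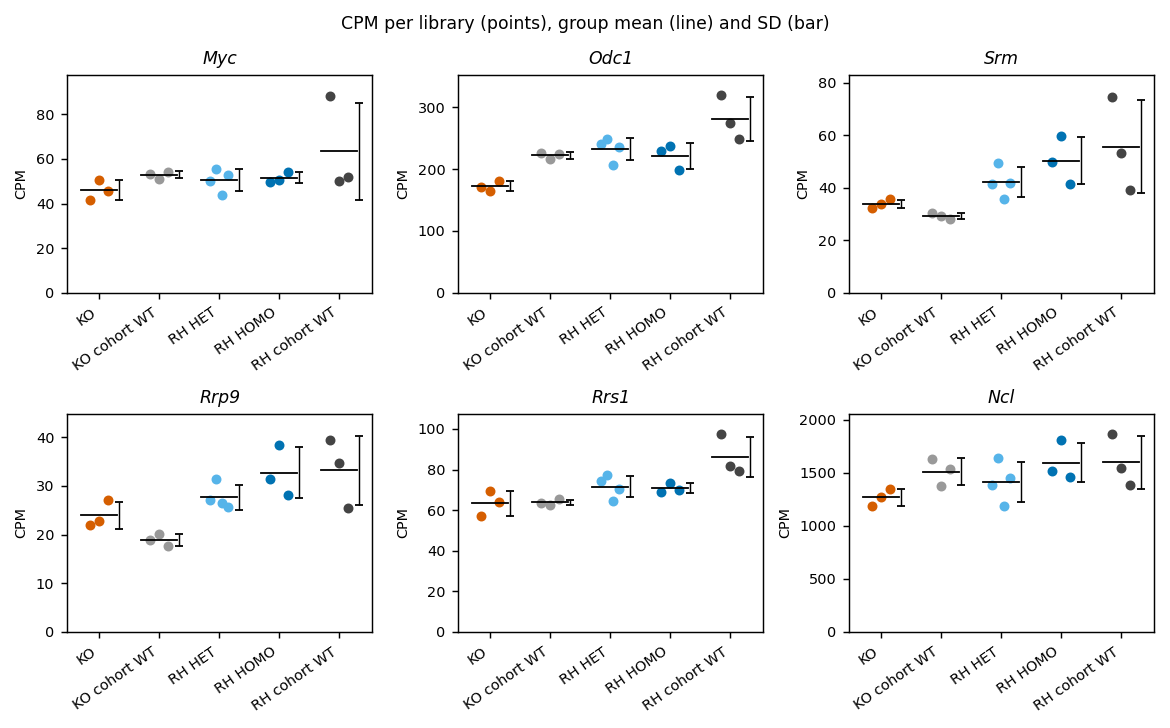
CPM of Myc, Odc1, Srm, Rrp9, Rrs1 and Ncl in each library (points) by group, with the group mean (line) and SD (bar). RH cohort WT 1 is the single high point of Myc at 88.3 CPM, and every Odc1 point of KO, RH HET and RH HOMO lies below the wild types of its cohort.

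Among the guide complexes, the box C/D proteins place methyl groups on ribosomal RNA and the box H/ACA proteins convert uridine to pseudouridine. None of the 7 genes was called, and the median of the 3 box C/D genes was -0.03 in KO, -0.21 in RH HET and -0.02 in RH HOMO. The median of the 4 box H/ACA genes was -0.10 in KO, -0.19 in RH HET and 0.04 in RH HOMO. Nop58, a core box C/D protein, had 164, 154 and 177 CPM in KO and 205, 188 and 188 CPM in KO cohort WT, and the groups did not overlap. It had 156, 212, 154 and 189 CPM in RH HET and 207, 217 and 191 CPM in RH HOMO, against 251, 214 and 168 CPM in RH cohort WT, with overlap in both. Dkc1, the pseudouridine synthase, had 108, 108 and 114 CPM in KO and 140.2, 126 and 129 CPM in KO cohort WT, a log2 difference of -0.26 ± 0.11 (adjusted p = 0.353) without overlap. In RH HET it had 114, 138, 101 and 130.3 CPM and in RH HOMO 131, 139 and 127 CPM, against 154, 129 and 117 CPM in RH cohort WT, with overlap in both. The methyltransferase gene Fbl, Nop56, and the H/ACA genes Gar1 and Nhp2 differed by -0.03 to 0.06 in KO. Gar1 had the lowest value of the 7 in RH HET, at -0.34 ± 0.16 (adjusted p = 0.689).

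All 7 genes of RNA polymerase I and the nucleolus were negative in KO, with a median of -0.12, and in RH HET, with a median of -0.18, and 6 of 7 were negative in RH HOMO, with a median of -0.17. None was called. Ncl, which encodes nucleolin and had the highest CPM of the set, was read at 1183, 1275 and 1344 CPM in KO and 1626, 1371 and 1534 CPM in KO cohort WT. Its CPM was 1380, 1639, 1183 and 1447 in RH HET and 1514, 1809 and 1462 in RH HOMO, against 1868, 1546 and 1380 CPM in RH cohort WT. The KO libraries lay below their wild types, with a log2 difference of -0.25 ± 0.13 (adjusted p = 0.477), and the knock-in groups overlapped with theirs. Polr1a, the largest subunit of RNA polymerase I, had 75.2, 73.9 and 71.2 CPM in KO and 78.4, 78.9 and 83.6 CPM in KO cohort WT, without overlap. It had 73.7, 90.1, 72.5 and 77.4 CPM in RH HET and 69.7, 62.6 and 82.5 CPM in RH HOMO, against 95.7, 80.8 and 77.9 CPM in RH cohort WT, with overlap in both. Mybbp1a, a nucleolar factor of ribosomal RNA synthesis and processing, had 251, 248 and 247 CPM in KO and 277, 259 and 274 CPM in KO cohort WT, without overlap. For Mybbp1a the values were 261, 328, 252 and 279 CPM in RH HET and 299, 259 and 303 CPM in RH HOMO, against 389.5, 327 and 285 CPM in RH cohort WT, with overlap in both. Npm1, the gene of the nucleolar chaperone nucleophosmin, which has processed pseudogenes, was at 802 ± 31.7 CPM in KO and 957 ± 97.1 CPM in KO cohort WT (mean ± SD, n = 3 each), without overlap. Polr1b, Nolc1 and Ddx21 differed by -0.11 to -0.05 in KO.

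The 11 genes of small subunit assembly were mostly negative in the comparisons with wild type, with 8 of 11 in KO, 11 of 11 in RH HET and 10 of 11 in RH HOMO, and none was called. Rrp9, a protein of the U3 complex that guides the first cleavages, had higher values in KO. They were 22.0, 22.8 and 27.1 CPM, against 18.8, 20.1 and 17.6 CPM in KO cohort WT, without overlap, a log2 difference of 0.35 ± 0.15 (adjusted p = 0.345). It had 27.2, 31.3, 26.4 and 25.6 CPM in RH HET and 31.4, 38.4 and 28.2 CPM in RH HOMO, against 39.4, 34.7 and 25.5 CPM in RH cohort WT, with overlap. The RH HET difference of Rrp9 minus its KO difference was -0.61 ± 0.21 (adjusted p = 0.367). With the ribosomal protein share as a covariate, Rrp9 passed the threshold in KO, at 0.40 (adjusted p = 0.0323), in a fit that called 5.33% of all tested genes. With RH cohort WT 1 counted in KO cohort WT, the KO value of Rrp9 was 0.01.

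Imp4, another U3 protein and the holder of the E-box shown above, had 78.1, 78.7, 76.9 and 77.9 CPM in RH HET and 80.7, 79.2 and 74.1 CPM in RH HOMO, against 92.5, 86.6 and 83.4 CPM in RH cohort WT. All 7 mutant libraries were below all 3 wild types, with a log2 difference of -0.17 ± 0.07 in RH HET (adjusted p = 0.662) and -0.17 ± 0.08 in RH HOMO (adjusted p = 0.360). In the other cohort Imp4 was at 65.7, 72.8 and 69.2 CPM in KO and 71.4, 74.3 and 73.3 CPM in KO cohort WT, with overlap. Wdr43, a processome protein whose window also holds the E-box, had 156, 159.7 and 175 CPM in KO and 188, 187 and 184 CPM in KO cohort WT, without overlap. Wdr43 had 176, 204, 158 and 178 CPM in RH HET and 178, 204 and 178 CPM in RH HOMO, against 237, 197 and 183 CPM in RH cohort WT, with overlap. The processome scaffolds Utp20 and Heatr1 were also lower in all KO libraries than in all their wild types, with log2 differences of -0.14 ± 0.15 and -0.14 ± 0.13, neither called. Wdr75, Nat10, Nop14, Bysl, Tsr1 and Rrp12 overlapped in every comparison with wild type. Of the exon bases of Tsr1, 32.3% are shared with Srr on the other strand, and of those of Bysl 9.37% with Ccnd3, and the library kit does not mark strand, so reads in these stretches cannot be told apart.

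The PeBoW complex of Pes1, Bop1 and Wdr12 processes the RNA of the large subunit. Pes1 had 96.3, 115 and 109 CPM in KO and 124, 109 and 109 CPM in KO cohort WT, and 129, 135, 120.3 and 119 CPM in RH HET and 128, 140.3 and 128 CPM in RH HOMO, against 153, 132 and 122 CPM in RH cohort WT. All of its groups overlapped with their wild types. Bop1 differed by 0.18 ± 0.10 in KO and by -0.16 ± 0.09 in RH HET, neither called, and the RH HET difference minus the KO difference was -0.34 ± 0.13 (adjusted p = 0.483). Wdr12 differed by -0.16 ± 0.12 in KO and -0.25 ± 0.11 in RH HET, with overlap in both.

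The 8 genes of large subunit assembly were the one role group with more positive than negative differences among the ribosome factors in KO, 5 of 8 with a median of 0.04. All 8 were negative in RH HET, with a median of -0.24, and 4 of 8 in RH HOMO, with a median of -0.07. None was called. Rrs1, an assembly factor that brings in the 5S particle, had 74.2, 77.1, 64.7 and 70.6 CPM in RH HET and 68.9, 73.5 and 69.8 CPM in RH HOMO, against 97.5, 82.0 and 79.2 CPM in RH cohort WT. No mutant library reached the lowest wild type, and the log2 differences were -0.27 ± 0.09 in RH HET (adjusted p = 0.557) and -0.29 ± 0.10 in RH HOMO (adjusted p = 0.187). These values were -0.16 and -0.19 without RH cohort WT 1. In KO Rrs1 was at 56.9, 69.3 and 64.1 CPM, against 63.3, 62.7 and 65.4 CPM in KO cohort WT, with overlap and a log2 difference of -0.01 ± 0.10.

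Ppan, a factor of large subunit maturation, varied widely within the knock-in groups. It had 84.1, 135, 92.3 and 86.5 CPM in RH HET and 95.3, 136 and 88.9 CPM in RH HOMO, against 143, 132 and 89.5 CPM in RH cohort WT, so 1 heterozygous and 1 homozygous library lay with the 2 high wild types. In KO it was at 70.9, 81.3 and 77.8 CPM, against 72.3, 74.4 and 71.4 CPM in KO cohort WT, with overlap. Nop2, an RNA methyltransferase whose window holds the E-box, was higher in all KO libraries than in their wild types, at 59.9 ± 1.86 CPM in KO and 55.5 ± 0.94 CPM in KO cohort WT (mean ± SD, n = 3 each), a log2 difference of 0.11 ± 0.13 (adjusted p = 0.828). Ebna1bp2 had the highest value of the 40 genes in RH HOMO, at 0.20 ± 0.16. It was at 118.4 CPM in RH HOMO 2. The other homozygous libraries, at 72.1 and 81.8 CPM, lay within the RH cohort WT range of 66.74 to 96.45 CPM. Under the alternatives its RH HOMO value ran from -0.04 to 0.48. Nop16, Gnl3, Wdr74 and Rrp1b differed by -0.18 to 0.10 in KO and by -0.26 to -0.15 in RH HET, and all overlapped with their wild types.

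**Figure D5:**
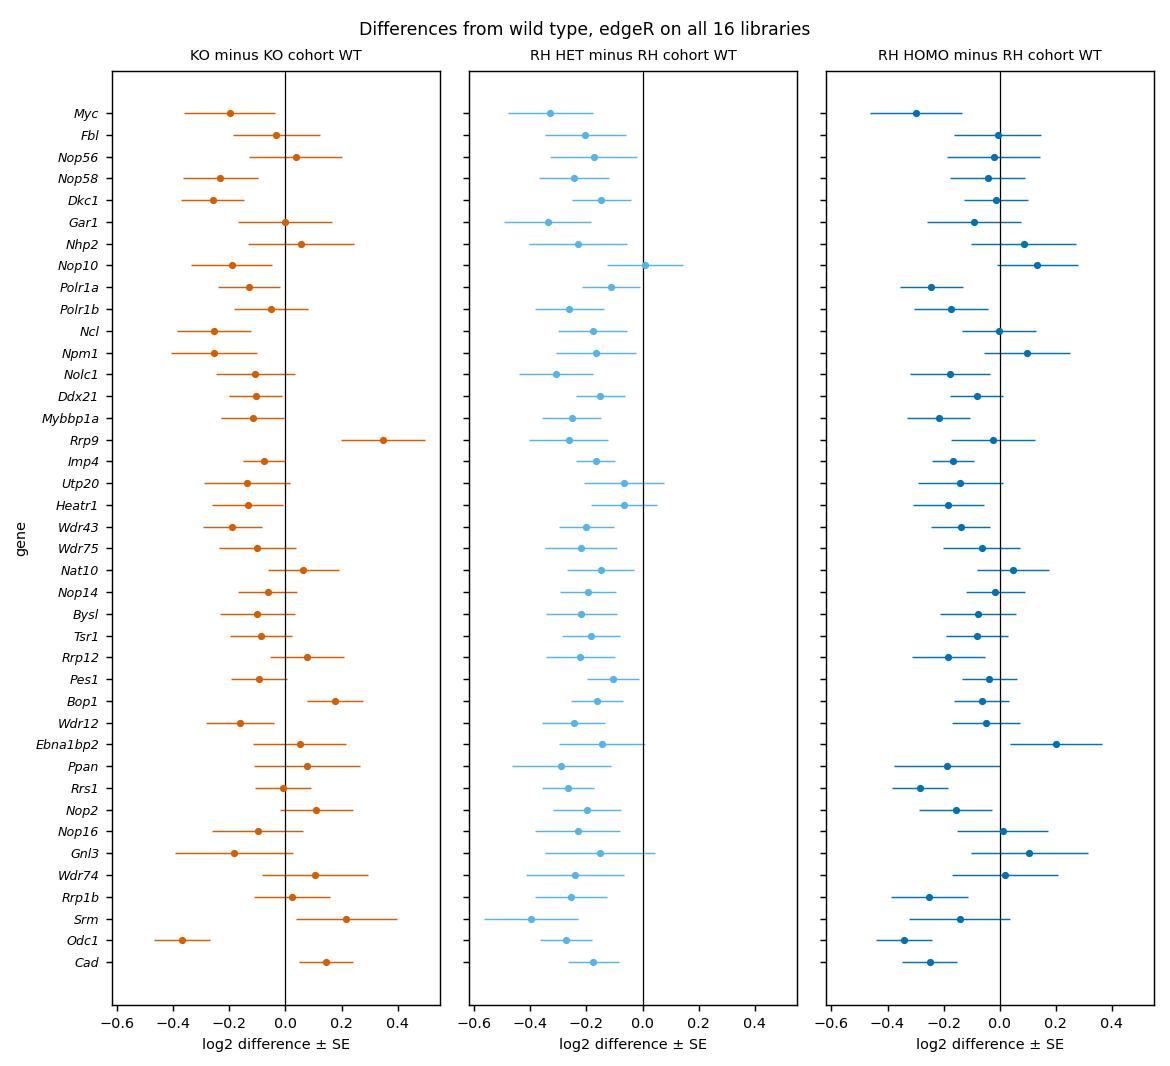
Log2 difference from wild type (points) and its SE (bars) from edgeR for each of the 40 genes, in KO, RH HET and RH HOMO. In RH HET 39 of the 40 points are left of 0, in KO 27 and in RH HOMO 32, and none passed the adjusted threshold.

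The homozygous libraries were then set against the heterozygous ones. Of the 40 genes, 34 were positive and 6 negative, against 47.4% of all tested genes negative. Their median was 0.13, against 0.02 over all tested genes. EdgeR called 0 of the 40 and 0.0% of all tested genes, and DESeq2 and limma-voom called 0 of the 40, against 0.789% and 0.0% of all tested genes. An unadjusted p under 0.05 was reached by 1 of the 40, Ebna1bp2, at 0.35 ± 0.15 (adjusted p = 0.425), and by 11.4% of all tested genes. Only RH HOMO 2, at 118.4 CPM, lay above the RH HET range of Ebna1bp2, 64.38 to 85.43 CPM. No gene of the 40 was free of overlap between these groups, against 4.28% of all tested genes lower and 3.78% higher without overlap. The median was 0.04 without RH HOMO 2, 0.07 without RH HET 1 or without RH HET 3, and 0.02 with the ribosomal protein share as a covariate.

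The differences themselves were compared between the cohorts. The RH HET difference minus the KO difference was negative for 31 of the 40 genes, with a median of -0.13, and for 50.7% of all tested genes. EdgeR called 0 of the 40, against 0.12% of all tested genes (0.0482% higher and 0.0723% lower), and 4 of the 40 had an unadjusted p under 0.05, against 8.6%. The RH HOMO difference minus the KO difference was negative for 21 of the 40, with a median of -0.01, and for 49.0% of all tested genes. EdgeR called 0 of the 40, against 0.241% of all tested genes (0.0783% higher and 0.163% lower), and 1 of the 40 had an unadjusted p under 0.05, against 9.53%. DESeq2 and limma-voom called 0 of the 40 in both, against 0.717% and 0.132% of all tested genes for RH HET and 1.34% and 0.211% for RH HOMO. With RH cohort WT 1 counted in the knockout cohort, as its batch tag has it, the 2 medians were 0.13 and 0.25, and with the mitochondrial share as a covariate they were 0.08 and 0.17, so that both signs turned in each case. Without that library they were -0.01 and 0.11, without RH cohort WT 3 they were -0.25 and -0.11, and each other library left out in turn left them between -0.19 and -0.09 and between -0.10 and 0.01.

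Of 121 further genes of the pathway, 120 could be tested and 2 were called, 1 in KO and 1 in RH HOMO, which is no more than the 1.3% and 1.57% of all tested genes. In KO, 74 of the 120 were negative with a median of -0.05, against 50.3% of all tested genes. In RH HET 107 were negative with a median of -0.12, against 51.2% of all tested genes. In RH HOMO 59 were negative with a median of 0.01, against 47.3%. The 22 further Myc-linked biosynthesis genes were all negative in RH HET, with a median of -0.20, against the same 51.2%. Both knock-in comparisons include RH cohort WT 1, where 47 of the 120 were at their highest of 16 libraries, against 9.97% of all tested genes. Counts and medians of the 120 without that library are not reported here. Among the 13 tested genes of the Myc and Max network, 6 were negative in KO and 6 in RH HET, where their median was 0.14. In RH HOMO 5 were negative, with a median of 0.12. An unadjusted p under 0.05 was reached by 3 of the 13 in KO, 2 in RH HET and 5 in RH HOMO. The shares of all tested genes were 12.1%, 7.18% and 12.9%. Mxd1 had the smallest p of the list in RH HOMO, with an edgeR adjusted p of 0.0696, and was not called.

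Bin1, which encodes an adaptor protein that can bind Myc, was lower in KO. It had 110.9, 135 and 116 CPM in KO, against 151, 159 and 171 CPM in KO cohort WT, and the groups did not overlap. The log2 difference was -0.41 ± 0.10 (SE, edgeR adjusted p = 0.0472), and it was -0.11 ± 0.09 in RH HET and -0.11 ± 0.10 in RH HOMO, neither called. The call was lost in 13 of 28 alternative fits, each of them the removal of 1 library. Among these removals, the largest adjusted p was 0.225, without KO 1, followed by 0.206 without KO cohort WT 3, 0.182 without KO 3, 0.166 without KO cohort WT 2 and 0.0949 without KO cohort WT 1, while the other 8 gave 0.0513 to 0.0749.

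Shmt2, the mitochondrial enzyme that passes carbon from serine into nucleotide synthesis, was lower in RH HOMO. Its CPM was 195, 238 and 185 in RH HOMO, against 333, 324 and 249 in RH cohort WT, without overlap, a log2 difference of -0.55 ± 0.12 (adjusted p = 0.0247). In RH HET it was at 229, 254, 211 and 214 CPM and differed by -0.41 ± 0.11 (adjusted p = 0.370). The RH HOMO call was lost without RH cohort WT 1 (adjusted p = 0.0964), RH cohort WT 2 (0.11), RH HOMO 1 (0.0849) or RH HOMO 3 (0.0667), with RH cohort WT 1 in the knockout cohort (0.374), with the mitochondrial share as a covariate (0.147) and with the compared libraries alone (0.281). The log2 difference was -0.34 with the mitochondrial share as a covariate, and -0.56 to -0.48 in the other 6 of these fits. Further genes named by the same rule did not pass the test. Tcof1, a cofactor of RNA polymerase I, was at -0.28 ± 0.09 in RH HOMO (adjusted p = 0.138), and the polymerase subunit gene Twistnb at -0.18 ± 0.09 in KO (adjusted p = 0.451). Among assembly factors, Nol6 was at 0.24 ± 0.09 in KO (adjusted p = 0.259), Riok1 at -0.27 ± 0.10 in RH HET (adjusted p = 0.615), Nsa2 at -0.27 ± 0.10 in KO (adjusted p = 0.246) and Gtpbp4 at -0.25 ± 0.11 in KO (adjusted p = 0.340).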

How the data were processed

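Per the labels' protocols, RNA was prepared with the TruSeq RNA v2 kit. The deposited table holds whole-number read counts per gene symbol from the authors, and CASAVA 1.8, HISAT2, featureCounts and mm10 stand in the submitters' processing notes. The strand setting is not given in the sources used here. Groups came from the titles. Several tags were shifted, and replicate numbers follow accession order.

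EdgeR 4.0.16 in R 4.3.3 was run on the counts of all 16 libraries (filterByExpr, TMM, 5 group means, 11 residual degrees of freedom, glmQLFit and glmQLFTest), with Benjamini-Hochberg adjustment over 16606 genes. The spread of each gene was estimated over both cohorts together. CPM use TMM-scaled totals. An SE is the log2 difference divided by the square root of F. The fit was also run on simulated counts with known changes. These held no shift of a whole library such as that of RH cohort WT 1, and the outcome is not reported here. Replicates differed beyond sampling noise (chi-square per degree of freedom 16.8 to 216). All 40 genes are reported. A germinal centre marker of the planned list is not reported here. Values per library are given for Myc, the 5 smallest p in each comparison with wild type and the highest CPM of each role. Those of Nhp2, Utp20 and Ebna1bp2 in RH HOMO were added after they were seen. Among further pathway genes, called ones or else the 2 smallest p per list are named, with Mxd1 added after its value was seen. The genes, lists and rules were chosen with earlier results of these data known. The 29 alternatives included DESeq2 1.42.0, limma 3.58.1, covariates and leaving out each library. The ribosomal protein share and the removal of ribosomal protein and mitochondrial genes were added after seeing the data.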

Additional observations from a re-analysis of the deposited data

Results flagged for a closer look

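In the 4 heterozygous libraries, 43 quantities were each examined for 1 library far from the other 3, and 6 had one. For a single quantity, chance gives about 1 in 20. The quantities are not independent, since RH HET 2 was above the other 3 for 38 of the 40 genes. The count of 6 therefore cannot be weighed against that rate. RH HET 2 was high for Polr1b, at 36.52 CPM against 26.3 to 27.6 CPM in the other 3, and for Wdr12, at 38.72 CPM against 33.1 to 33.6 CPM. It was also high for Ppan, at 134.9 CPM against 84.1 to 92.3 CPM, and for Rrp1b, at 47.4 CPM against 35.7 to 37.5 CPM. The share of counts on ribosomal protein genes in RH HET 2 was 6.796%, against 5.48% to 5.61% in the other 3. RH HET 3 was low for Bysl, at 66.6 CPM against 75.6 to 77.3 CPM.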

How the results depend on the processing

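No paired analysis was possible because the replicate numbers follow accession order and pair no libraries. The number of the 40 genes called lower in KO was 1 (Odc1) in place of 0 with DESeq2 (1.69% of all genes tested there were called lower, against 0.729% in the edgeR fit), with the compared libraries alone (2.37%), with the library of conflicting tags in the knockout cohort (0.717%), with the mitochondrial share as a covariate (1.13%), without RH cohort WT 1 and RH HOMO 2 together (1.4%), with the ribosomal protein share as a covariate (2.9%) and at an adjusted p under 0.1 (1.16%). It ran from 0 to 1 when each library was left out, with 1 without RH HOMO 2 (1.24%). With the ribosomal protein share as a covariate, 1 gene was higher in KO (Rrp9), against 2.43% of all tested genes, 2 were lower in RH HOMO (Odc1 and Rrs1), against 2.35%, and 1 was lower in the RH HET difference minus the KO difference (Rrp9), against 0.566%. DESeq2 called 1 lower in RH HOMO (Odc1), against 2.42%. With the mitochondrial share as a covariate, the median was 0.0301 in RH HET, 0.146 in RH HOMO, 0.0814 for the RH HET minus the KO difference and 0.173 for the RH HOMO minus the KO difference. With the library of conflicting tags in the knockout cohort, these last 2 medians were 0.132 and 0.25. The cause of these changes was not tested. The other 504 counts and medians stayed within the limits set, which for a median was 0.143, the SD between libraries within groups. This limit is larger than the size of the KO median (-0.0912) and of the RH HOMO median (-0.0792), so a change of sign could stay within it. The RH HOMO median did so at 0.0504 without RH cohort WT 1 and at 0.0399 with that library in the knockout cohort. Of 6960 values of single genes under the alternatives, 6439 kept their sign and their side of the threshold, 508 uncalled values changed sign and 13 became called. Part of this agreement was fixed in advance. The looser threshold reused the main fit, so no sign could change there. Leaving out a library outside a comparison moved the median of that comparison little. With 3 or 4 libraries a group and a median SE of 0.12 to 0.13 in these comparisons with wild type, a value short of the threshold does not show that 2 groups are alike.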
